A study of Homo sapiens with 7 samples.

Results

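The enzymes that write, oxidise and remove DNA methylation were examined for the 5-hydroxymethylcytosine (5-hmC) carried by their own genes. 10 genes were followed: TET1, TET2 and TET3, DNMT1, DNMT3A and DNMT3B, IDH1 and IDH2, TDG and UHRF1. Each was represented by a window of human genome build hg19 around the gene with flanks of about 20 kb, and a 5-hmC peak belonged to a window when its midpoint lay inside it. The windows were set by gene position and not by any measured value. They held 210 of 285292 peaks at 0 h, 228 of 292707 at 6 h, 205 of 294096 at 12 h, 215 of 312126 at 24 h, 246 of 336931 at 48 h and 241 of 352484 at 72 h.

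The cells were SK-N-BE(2), an established human neuroblastoma line with amplified MYCN, all of wild-type genotype and grown in RPMI medium with serum. They were kept at 21% oxygen (0 h, normoxia) or in 1% oxygen (hypoxia) for 6, 12, 24, 48 or 72 h. In the assay an azide-bearing glucose is put on 5-hmC in sheared genomic DNA, biotin is clicked to it, and the captured fragments are sequenced. There was 1 captured library per time, which leaves every value without replicate error and every difference as one between 2 libraries. The input library, also from 21% oxygen at 0 h, was not analysed here. Normoxia was sampled at 0 h alone, so low oxygen cannot be told apart from time in culture.

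TET1, TET2 and TET3 are dioxygenases that use molecular oxygen, iron and alpha-ketoglutarate to convert 5-methylcytosine to 5-hmC and then to further oxidised bases, and TDG is the glycosylase that cuts those further oxidised bases out for repair. DNMT3A and DNMT3B place new methyl groups on cytosine, while DNMT1, guided to newly copied DNA by UHRF1, copies existing methylation, so these 4 proteins supply the substrate of the TET enzymes. IDH1 in the cytosol and IDH2 in mitochondria make alpha-ketoglutarate. 5-hmC is generally found along the bodies of active genes and at enhancers, and is low at CpG-rich promoters.

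The promoter sequences of 4 of the genes are shown because peaks were placed differently near the 5′ points of their windows. The 5′ point is the point 20 kb inside a window on the gene's 5′ side. A peak lay within 1 kb of it in every list for TET1 and TET2, and in no list for DNMT1 and TDG. The sequences are RefSeq windows of 300 bases on build GRCh38.p14, from 250 bases before to 50 after the outermost annotated start, read 5′ to 3′ on the gene's strand, with each CG dinucleotide, the main substrate of methylation, in capitals. TET1 is at chr10:68560087-68560386 on the plus strand, TET2 at chr4:105145625-105145924 on the plus strand, DNMT1 at chr19:10194904-10195203 on the minus strand and TDG at chr12:103965622-103965921 on the plus strand. The peak lists use hg19, so these coordinates cannot be set beside those of the peaks, and no 5-hmC value belongs to a single base shown here.
TET1: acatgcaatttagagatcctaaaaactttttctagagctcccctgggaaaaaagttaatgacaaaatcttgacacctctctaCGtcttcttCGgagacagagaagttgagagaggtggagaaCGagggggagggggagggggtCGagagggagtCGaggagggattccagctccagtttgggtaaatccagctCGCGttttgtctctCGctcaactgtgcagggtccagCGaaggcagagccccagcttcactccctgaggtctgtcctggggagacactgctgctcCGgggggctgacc
TET2: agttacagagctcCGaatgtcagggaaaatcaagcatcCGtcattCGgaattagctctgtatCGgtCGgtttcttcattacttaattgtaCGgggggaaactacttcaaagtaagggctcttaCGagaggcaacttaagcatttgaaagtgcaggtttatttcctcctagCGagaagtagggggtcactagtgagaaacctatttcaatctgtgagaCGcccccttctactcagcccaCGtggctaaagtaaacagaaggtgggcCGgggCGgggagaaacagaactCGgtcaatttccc
DNMT1: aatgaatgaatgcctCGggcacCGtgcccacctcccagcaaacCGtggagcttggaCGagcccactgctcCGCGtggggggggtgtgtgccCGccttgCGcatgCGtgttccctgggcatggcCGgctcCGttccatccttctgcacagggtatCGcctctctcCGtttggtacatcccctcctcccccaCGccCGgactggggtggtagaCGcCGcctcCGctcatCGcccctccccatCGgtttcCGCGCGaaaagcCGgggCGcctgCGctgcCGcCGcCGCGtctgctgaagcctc
TDG: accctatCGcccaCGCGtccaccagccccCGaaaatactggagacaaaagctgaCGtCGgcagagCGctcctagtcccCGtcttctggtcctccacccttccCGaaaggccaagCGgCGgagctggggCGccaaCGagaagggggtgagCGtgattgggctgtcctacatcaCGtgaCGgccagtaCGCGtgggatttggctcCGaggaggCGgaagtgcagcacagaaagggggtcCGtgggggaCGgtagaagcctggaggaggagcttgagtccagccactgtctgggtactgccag

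Of these 4, both with a peak near the 5′ point were poorer in CG than the pair without. The 4 were picked by that placement, and DNMT3B and IDH2, whose windows also matched the gene length, are not shown. The contrast therefore covers these 4 alone. The TET1 sequence holds 10 CG and the TET2 sequence 13, against 30 for DNMT1 and 22 for TDG, and the median over 35116 RefSeq promoters of the same length was 14.0. The letters CACGTG, the canonical E-box bound by MYC-family proteins, read the same on both strands and contain a CG. They occur in TET2 at position −14 and in TDG at position −80 from the start, and not in the TET1 and DNMT1 windows, while 7.26% of all the promoters hold them. These are descriptions of the sequence and do not show binding.

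The 5-hmC level of a gene is given here as the share of its window that peaks covered, set beside 20617 bins of 100 kb over chromosomes 1 to 22 and X with a mean covered length of at least 1 kb. Each peak was counted at its full width, also where it reached past the edge of its window or bin. The windows are 60 to 175 kb long and centred on genes, which the bins are not. At 0 h the median bin was covered to 4.52% and the 90th percentile of bins to 16.3%. DNMT3A was the most heavily covered of the 10, at 40.2% of its window in normoxia, and 0.718% of bins reached that level. UHRF1 followed at 23.7%, a level reached by 4.21% of bins. IDH2 at 15.2%, DNMT1 at 11.9% and DNMT3B at 10.1% stood below the 90th percentile and above the median. TET3 at 6.93% and TET1 at 5.85% also lay above the median, and TET2 at 4.14%, TDG at 3.82% and IDH1 at 2.82% lay below it.

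This order held through the course at its upper end. DNMT3A ranged from 40.2 to 47.3% over the 6 lists and UHRF1 from 21.5 to 26.7%, and neither range met that of another gene. IDH2 ranged from 14.7 to 16.0%, which met no other range either. Its widest peak, however, begins at chr15:90604846 at 0 h, before the window's edge at 90.606 Mb, and was counted whole. Cut at the edge, the range of IDH2 would meet those of DNMT1 and DNMT3B, so its separation from them rests on the part outside the window. DNMT1, from 11.2 to 13.3%, lay inside the range of DNMT3B, from 10.1 to 13.9%, so these genes were not separated. The ranges of TET3 (6.93 to 11.3%), TET1 (5.65 to 8.64%), TET2 (3.68 to 6.15%), IDH1 (2.82 to 5.33%) and TDG (2.74 to 3.82%) each met that of the next, and TET3 met both DNMT1 and DNMT3B. The de novo methyltransferase genes therefore did not share a level, with DNMT3A at several times the cover of DNMT3B in each list, and neither did the IDH genes.

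**Figure D1:**
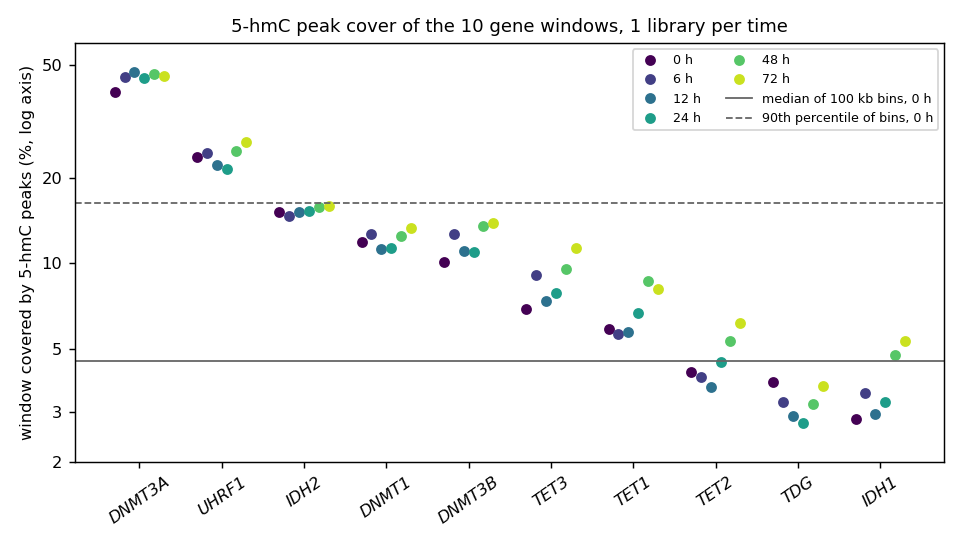
Share of each gene window covered by 5-hmC peaks (vertical axis, percent, log scale) for the 10 genes, with 1 point per list from 0 h (dark) to 72 h (light) and lines at the median and 90th percentile of 100 kb bins at 0 h. DNMT3A, at 40.2 to 47.3%, and UHRF1, at 21.5 to 26.7%, stand above the upper line in all 6 lists, and TDG, at 2.74 to 3.82%, below the median line in all 6.

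The cover of DNMT3A came from peaks that were both many and, in part, long. At 0 h it had 44.4 peaks per 100 kb, the most of the 10 windows, followed by UHRF1 with 31.6. DNMT3A (chromosome 2, 25.435 to 25.586 Mb) held 67 peaks at 0 h, 17 of them at least 1000 bp wide, and 69 at 72 h, 22 of them that wide. Peaks of all lists that overlapped by at least 1 bp were merged into regions, and 8 regions of this window carried at least 2000 bp of peak at every time. The widest, chr2:25558024-25563359, has its midpoint about 5.31 kb past the window's 5′ point. It was covered over 5239, 5242, 5180, 5236, 5234 and 5259 bp from 0 to 72 h, in 2 pieces at 6 h. Its covered length thus differed by less than 100 bp over the whole course. A further broad region, chr2:25534616-25539991, was covered over 4818 to 5058 bp. In all 10 windows 12 of 279 regions (4.30%) were of this broad and constant kind, against 1.03% of 415474 regions of the genome. Of the other 4, 2 lay in the DNMT1 window, 1 in the IDH2 window and 1 in the UHRF1 window.

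Some of these wide peaks lie in the flanks, beside a neighbouring gene. The widest of DNMT1 (chromosome 19, 10.224 to 10.326 Mb), chr19:10224035-10227690, is 80.1 kb from the window's 5′ point, in the flank where the gene table places EIF3G next. The widest of IDH2 (chromosome 15, 90.606 to 90.666 Mb), chr15:90604846-90607624, is 39.8 kb from the 5′ point of its window, in the flank towards ZNF710, and covered 2643 to 2752 bp. That of UHRF1 (chromosome 19, 4.889 to 4.965 Mb), chr19:4925575-4929844, is 18.7 kb past its window's 5′ point and covered 2680 to 3610 bp. No annotation of build hg19 was at hand, so whether a peak is exonic or intronic was not determined.

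**Figure D2:**
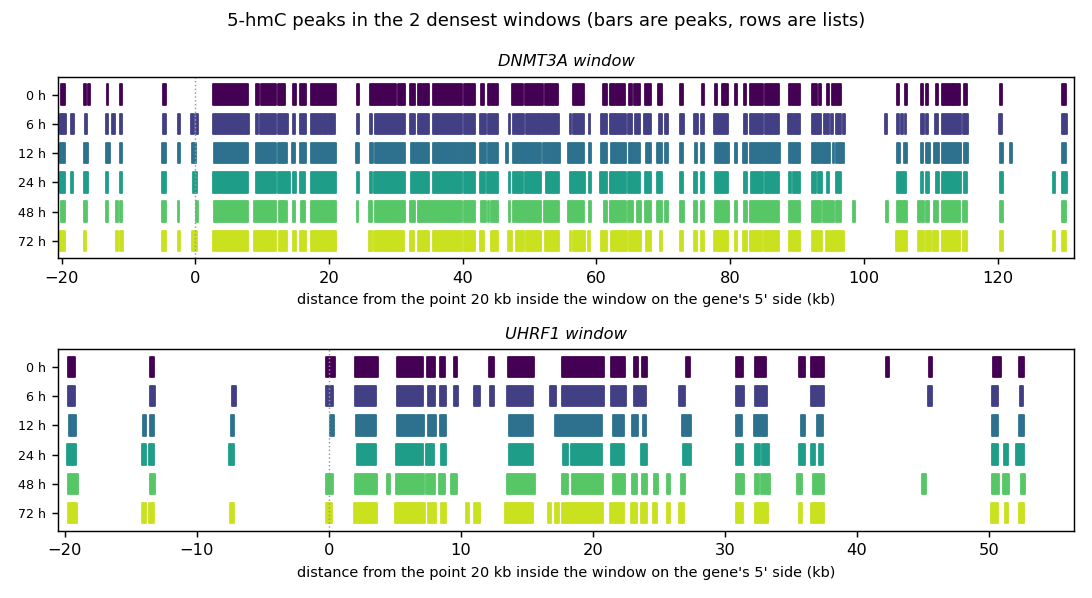
5-hmC peaks of the DNMT3A window (top) and the UHRF1 window (bottom), with 1 row per list from 0 to 72 h, drawn as bars along the distance in kb from the point 20 kb inside the window on the gene's 5′ side (dotted line). The long DNMT3A blocks recur in all 6 rows, and the peak at the dotted line of DNMT3A is absent from the 0 h row alone.

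Position near the 5′ end was read for 6 genes (TET1, TET2, DNMT1, DNMT3B, IDH2 and TDG), where the window without its flanks matched the RefSeq gene length within 2 kb. A match of length does not fix the start, and the flanks are only about 20 kb. Distances are therefore from the 5′ point, and how far it lies from the gene's start was not measured. For TET3, DNMT3A, IDH1 and UHRF1 the lengths differed, so the point 20 kb inside their windows may not be the gene's start. TET1 (chromosome 10, 70.300 to 70.475 Mb) had a peak just before this point in every list, at chr10:70319547-70319842 in normoxia. Its width was 296 bp at 0 h, then 383, 341, 398, 560 and 535 bp, so the 48 and 72 h peaks were the widest and the normoxic one the narrowest. TET2 (chromosome 4, 106.047 to 106.221 Mb) had a peak across the point in every list, 835 bp wide at 0 h and then 809, 825, 829, 948 and 939 bp. The 4 lists up to 24 h lay between 809 and 835 bp and the later pair above them.

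The other 4 placed genes had no region at the point or just before it that was present in every list. The nearest constant peak of DNMT1 began 1779 bp past the point at 0 h and between 1692 and 1830 bp later. DNMT3B (chromosome 20, 31.330 to 31.418 Mb) had a peak that began 956 bp inside at 0 h and 785 to 1286 bp inside later, and further ones before the point at 12 h (272 bp) and 24 h (245 bp). IDH2 had a peak 1199 bp inside at 0 h that was in every list except that of 72 h, and 1 of 252 bp just before the point at 24 h alone. TDG (chromosome 12, 104.339 to 104.403 Mb) had no peak within 2 kb of the point in any list. At the corresponding point of DNMT3A, which could not be placed at the gene's start, the region chr2:25565623-25566608 held no peak at 0 h and 655, 700, 485, 265 and 747 bp of peak at 6 to 72 h. UHRF1 had a peak at its point of 711, 603, 281, 500 and 478 bp at 0, 6, 12, 48 and 72 h and none at 24 h.

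**Figure D3:**
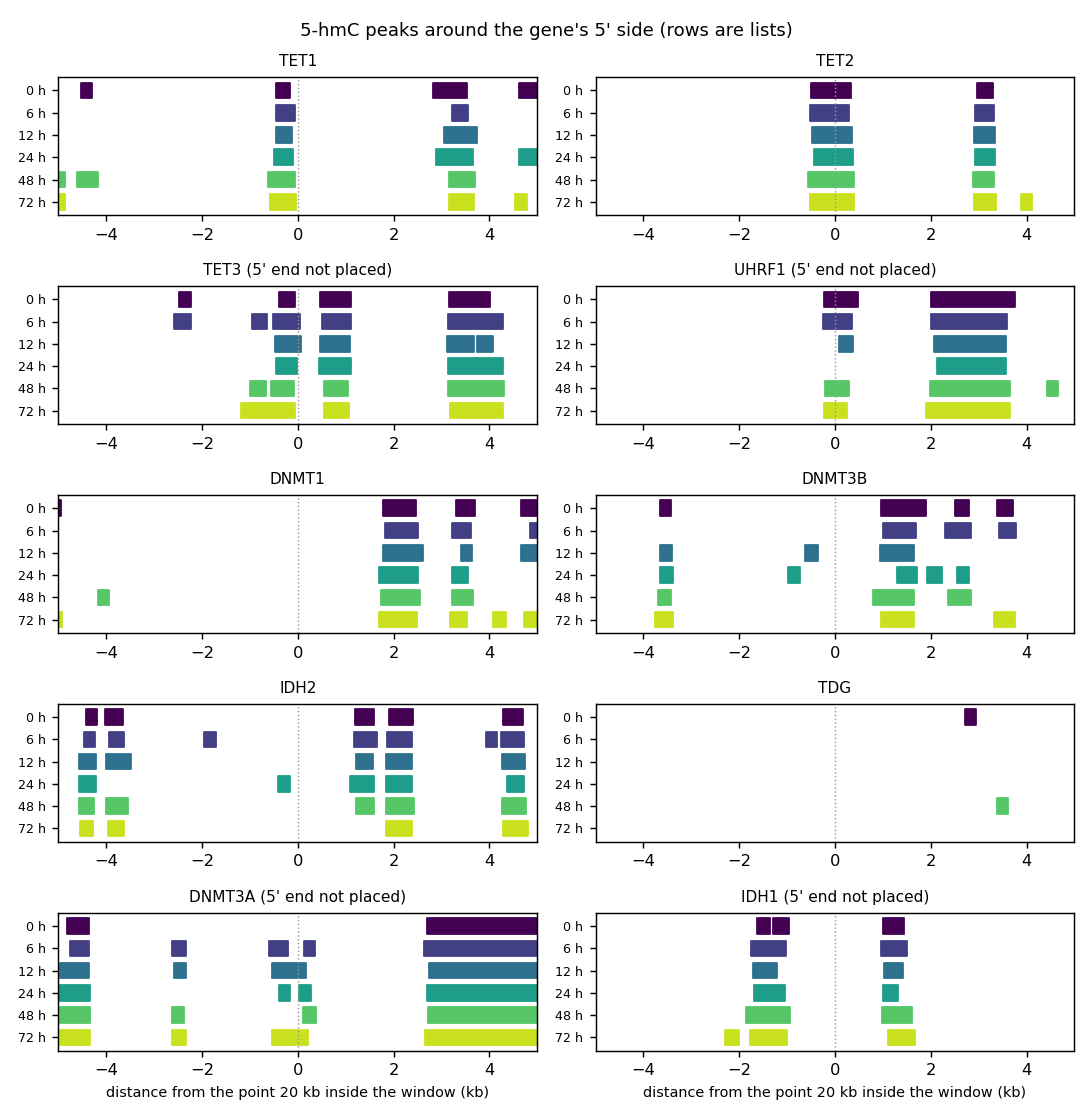
5-hmC peaks within 5 kb of the point 20 kb inside each window on the gene's 5′ side, with 1 panel per gene and 1 row per list from 0 to 72 h. The horizontal axis is distance in kb, positive in the gene's 3′ direction. For TET3, DNMT3A, IDH1 and UHRF1 the gene's 5′ end was not placed. In all 6 rows TET2 has a peak across the point and TET1 has one just before it, and TDG has none within 2 kb in any row.

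The comparison between times asks whether the 5-hmC on these genes changed in hypoxia. Together the windows were covered over 137.7 kb at 0 h, then 150.9, 146.7, 146.1, 162.7 and 167.4 kb, which is 1.22 times as much at 72 h as at 0 h. Peak number was 1.15 times as high, with a 95% interval of 0.950 to 1.39 that covers counting error alone and includes no change. The whole lists grew more: from 146.7 to 192.1 Mb, or 1.31 times, in covered length. Divided by that growth, the windows stood at 0.928 of their 0 h share at 72 h, and at 1.02, 1.01, 0.943 and 0.970 at 6, 12, 24 and 48 h. Without DNMT3A, which held 44.0% of the covered length at 0 h, the 72 h value was 0.975. Read depth is unknown, and a list can lengthen with more reads or a better capture. The narrowest peak differed too, at 226 bp in the 0 h list against 242 bp in that of 72 h. The part of depth, capture and smallest width in any difference was not tested.

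Each gene was therefore described by its relative ratio, the covered length over that at 0 h divided by the same ratio of the whole list, and was called higher at 1.3 or more and lower at 0.769 or less. The call is by size alone, with no test. A bin without cover at 0 h counted as higher, whereas every window had cover at 0 h. At 6 h no window was called, against 9.42% of bins higher and 6.41% lower. At 12 h and at 24 h none was higher (9.39 and 14.2% of bins) and 1 was lower, TDG (6.49 and 3.44% of bins). At 48 h IDH1 was higher (23.6% of bins) and TDG lower (4.45% of bins). At 72 h the same genes were called, IDH1 among 26.6% of bins higher and TDG among 5.77% lower. A single window of 10 in either direction does not set these genes as a group apart from the genome.

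**Figure D4:**
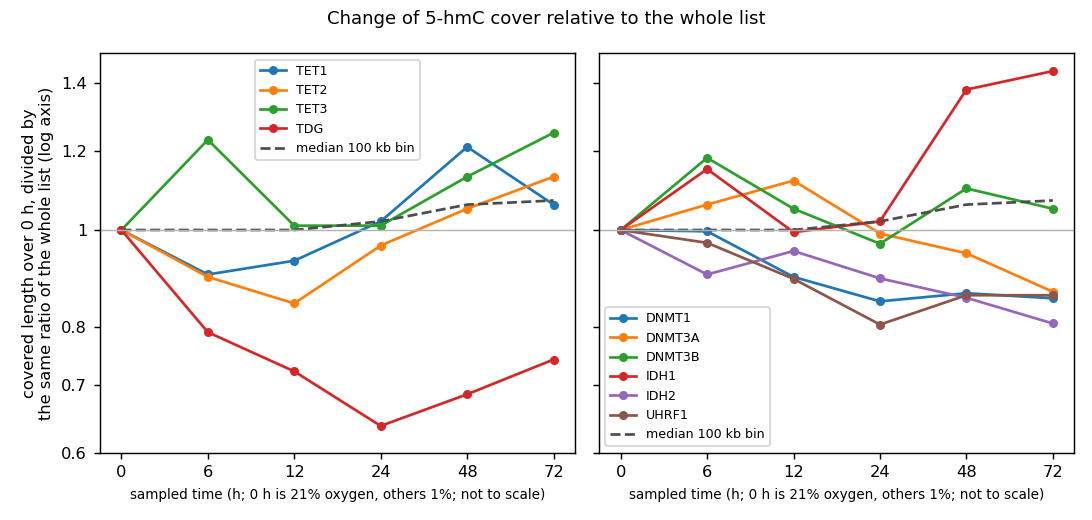
Covered length over that at 0 h divided by the same ratio of the whole list (vertical axis, log scale) against sampled time in hours, for the TET genes and TDG (left) and the other 6 genes (right), with the median 100 kb bin as a dashed line. IDH1 ends at 1.44 and TDG at 0.743, and the other 8 lines end between 0.807 and 1.25.

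Among the genes for the TET enzymes, covered length was greatest in the late lists. TET1 was covered over 10.2 kb at 0 h, then 9.90, 10.0, 11.7, 15.1 and 14.2 kb, with the 48 and 72 h values above the other 4. TET2 was covered over 7.20, 6.93, 6.40, 7.82, 9.24 and 10.7 kb, lowest at 12 h and highest at 72 h. TET3 (chromosome 2, 74.253 to 74.356 Mb) was covered over 7.14, 9.38, 7.59, 8.09, 9.84 and 11.7 kb, with the 0 h value the lowest of the 6. The 3 windows together were covered 1.49 times as far at 72 h as at 0 h, and 1.14 times relative to the lists. Their relative ratios at 72 h were 1.06, 1.13 and 1.25, none of them past the size rule. With peaks under 500 bp left out TET3 was at 2.04, past it, and TET1 at 0.937. Counted without the flanks, the ratios were 1.00 for TET1, 1.00 for TET2 and 1.08 for TET3, so TET1 and TET2 then grew as the lists did. The TET3 window stops short of the whole gene in the gene table, in which BOLA3 overlaps TET3.

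TDG had the lowest cover of the 10 windows in all 5 hypoxia lists, and IDH1 in normoxia. Its window was covered over 2.44 kb at 0 h, then 2.07, 1.86, 1.75, 2.04 and 2.38 kb, so every hypoxia list lay below normoxia although the lists as a whole grew. Relative ratios were 0.791, 0.723, 0.638, 0.686 and 0.743 from 6 to 72 h. The window held 6 peaks at 0 h and 4 or 5 afterwards. Both peaks that were present at 0 h alone, chr12:104361716-104361947 of 232 bp and chr12:104366773-104367054 of 282 bp, lay 2.83 and 7.91 kb inside the gene. The 4 regions that persisted, at chr12:104344944-104345383, chr12:104367858-104368846, chr12:104369106-104369587 and chr12:104391040-104391671, were 338, 615, 427 and 549 bp wide at 0 h and 440, 709, 422 and 559 bp at 72 h. The 72 h ratio was still called at 0.676 without the flanks, 0.734 with lists of equal length and 0.743 with peaks assigned by any overlap. It was not past the rule with 6 h as the reference (0.939) or with peaks under 500 bp left out (0.791), a setting that drops both peaks found at 0 h alone.

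IDH1 (chromosome 2, 209.080 to 209.151 Mb) had the highest relative ratio of the 10 at 48 and 72 h. Its window was covered over 2.00, 2.48, 2.10, 2.30, 3.38 and 3.78 kb, with the 48 and 72 h values above the earlier 4. Relative ratios were 1.15, 0.995, 1.02, 1.38 and 1.44. Without its flanks the IDH1 window is 31 kb long, against 18.8 kb for the gene. The next gene on the 5′ side is PIKFYVE. Of the 2005 bp covered in normoxia, 1053 lay within 2 kb of the window's 5′ point and 595 farther out in that flank. In the last list these parts held 1346 and 958 of 3783 bp. How much of the IDH1 cover belongs to that neighbour was not tested. All 5 peaks at 0 h overlapped peaks at 72 h, and 3 of the 7 peaks at 72 h had no counterpart at 0 h. The region chr2:209120341-209120812, 10.4 kb from the window's 5′ point, was absent at 0 h and held 307, 299, 445, 452 and 472 bp in hypoxia. A second, chr2:209092731-209093290, was present at 48 and 72 h alone, with 386 and 560 bp, and lies 38.0 kb from that point in the flank. The 72 h ratio was called in 4 of 5 alternatives, at 1.43 without the flanks, 1.44 by any overlap, 1.47 with lists of equal length and 3.14 with peaks under 500 bp left out. With 6 h as the reference it was 1.25, not past the rule. IDH2 behaved differently, with 9.10, 8.80, 9.12, 9.16, 9.49 and 9.61 kb and a relative ratio at 72 h of 0.807 (1.03 with peaks under 500 bp left out). All 13 of its peaks at 72 h overlapped a peak at 0 h, against 70.3% of the whole list.

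**Figure D5:**
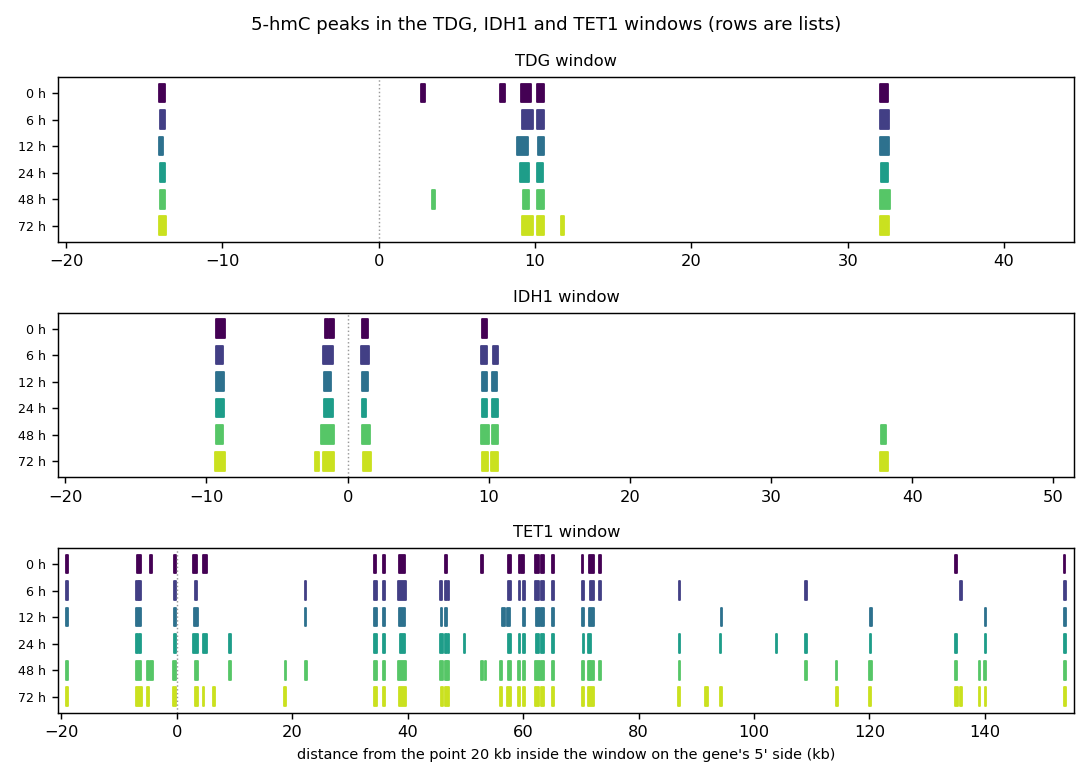
5-hmC peaks of the TDG, IDH1 and TET1 windows, with 1 row per list from 0 to 72 h, drawn as bars along the distance in kb from the point 20 kb inside the window on the gene's 5′ side (dotted line). TDG shows 2 narrow bars in the 0 h row alone, and IDH1 shows bars at 10.4 and 38.0 kb that the 0 h row lacks.

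How these calls compare with the genome depends on how densely a window is covered, a split made after the data were examined. Among 9661 bins with a mean cover of 1 to 5%, where TDG, IDH1 and TET2 belong, the median relative ratio at 72 h was 1.27 and 46.5% were called higher, so IDH1 at 1.44 was like many bins of its kind. In the same class 4.97% of bins were called lower, as TDG was. Among 5839 bins of 5 to 10%, the class of TET1 and TET3, the median was 1.06. Among 3559 bins of 10 to 20%, the class of IDH2, DNMT1 and DNMT3B, it was 0.936. Among 1558 bins of at least 20%, the class of DNMT3A and UHRF1, it was 0.865, close to their own 0.868 and 0.861.

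The genes for the methyltransferases and UHRF1 were covered above the median bin in every list, and by 72 h DNMT1, DNMT3A and UHRF1 had gained less than the lists did. DNMT3A was covered over 60.7 kb at 0 h, then 68.6, 71.5, 67.8, 70.1 and 69.0 kb, so all 5 hypoxia lists lay above normoxia and the highest was at 12 h. Its relative ratio was 1.06 and 1.12 at 6 and 12 h and 0.868 at 72 h. DNMT1 was covered over 12.1, 12.9, 11.4, 11.6, 12.8 and 13.5 kb, and DNMT3B over 8.85, 11.1, 9.77, 9.65, 11.9 and 12.2 kb, lowest at 0 h. Their relative ratios at 72 h were 0.855 and 1.05, and that of DNMT3B lay on the other side of 1 without the flanks (0.921) and with 6 h as the reference (0.897). UHRF1, whose protein recognises hemimethylated DNA after replication, was covered over 18.0, 18.7, 16.9, 16.3, 18.9 and 20.3 kb, lowest at 24 h. Its relative ratio at 72 h was 0.861, or 0.725 and past the rule with peaks under 500 bp left out. With all peaks none of these 4 genes passed the size rule at any time.

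Covered length was also set against hours over the 6 lists, in 1 table with all bins, by Pearson's r and, as a rank measure, Spearman's rho. Each has an exact permutation p, two-sided, over 720 orders, with Benjamini-Hochberg adjustment over 20627 rows. Covered length rose with hours in 3 of 10 windows, TET2, IDH1 and IDH2, and fell in none, against 42.2% of bins rising and 0.155% falling. TET2 had r = 0.956 (exact permutation p = 0.00972, adjusted p = 0.0341), IDH1 r = 0.949 (p = 0.0125, adjusted p = 0.0380 by the same exact permutation) and IDH2 r = 0.909 (p = 0.00972, adjusted p = 0.0341 by the same exact permutation). By rank the same genes gave rho = 0.771 (exact permutation p = 0.103, adjusted p = 0.169), 0.829 (exact permutation p = 0.0583, adjusted p = 0.121) and 0.943 (exact permutation p = 0.0167, adjusted p = 0.0657), none past the threshold, which 7.13% of bins passed rising. Without the 2 times farthest from the median hour, r was 0.459, 0.318 and 0.444, so the relation rests on those lists. With 1 list left out there are 120 orders and no bin passed, so that setting says nothing about single windows. As a share of the list, covered length passed in 0 of 10 windows in either direction, and in 0% of bins rising and 0% falling, with 1 window rising (IDH1) and 2 falling (DNMT3A and IDH2) at an unadjusted exact permutation p under 0.05. The smallest adjusted p over all rows of that table was 0.0699. The 6 lists differ in length as well as in time, so trends of covered length carry the growth of the lists.

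The question of which regions came and went was answered from the 279 merged regions of the windows. Of these, 136 (48.7%) held a peak in all 6 lists, against 46.8% of regions in the genome. DNMT3A was the most constant, with 44 of 62 regions (71.0%) in every list, and TET1 with 15 of 42, TET2 with 10 of 30 and TET3 with 10 of 29 were the least. The share of TET1 cover that lay in constant regions was 76.3% at 0 h and 62.3% at 72 h, that of IDH1 100 and 65.1%, and that of DNMT3A 97.8 and 94.7%. It was higher at 72 h in IDH2 (84.9 and 93.2%) and TDG (79.0 and 89.6%) and lower in the other 8, beside 86.4 and 74.4% over the genome. Of the 210 peaks at 0 h, 87.1% (Clopper-Pearson 95% interval 81.8 to 91.4%) overlapped a peak at 72 h, and 89.8% did so over the whole list. Of the 241 peaks at 72 h, 73.9% (67.8 to 79.3%) overlapped a peak at 0 h, against 70.3%. Both intervals, which cover counting error alone, include the share of the whole lists.

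Regions found in all 5 hypoxia lists and not at 0 h numbered 7 (2.51%, against 2.99% of the genome). DNMT3A had 3 of them, at its window's 5′ point as given above, at chr2:25490864-25491400 and at chr2:25506849-25507192, and IDH1, TET1, TET3 and DNMT1 had 1 each. The TET3 region, chr2:74332683-74333207, held 251, 391, 305, 416 and 525 bp from 6 to 72 h. The TET1 region, chr10:70365542-70366156, held 350, 280, 524, 489 and 324 bp and lies 45.8 kb inside the gene. The DNMT1 region, chr19:10293481-10293870, held 319, 232, 330, 321 and 260 bp. All 7 were under 800 bp in every list.

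Regions at 0 h alone numbered 6 (2.15%, against 1.84% of the genome). Besides both of TDG there was 1 each in TET2, TET3, IDH2 and UHRF1, and all were between 226 and 282 bp wide, where 226 bp is the narrowest width of the 0 h list. Regions at 72 h and not at 0 h numbered 57 (20.4%, against 24.3%), 13 of them in TET1, and those at 0 h and not at 72 h numbered 22 (7.89%, against 6.41%). 13 regions (4.66%, against 3.61%) were in the 48 and 72 h lists alone, 5 of them in TET1. 12 (4.30%, against 7.13%) were in the 72 h list alone, 4 of them in TET2. 46 (16.5%, against 17.9%) were in a single list.

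Where a region held exactly 1 peak in each list, its width could be followed, which applied to 91 regions. The median of these widths was 479.0 bp in normoxia and 561.0 bp in the last list. At 72 h 68 regions (74.7%) exceeded their 0 h width, against 71.2% of 155718 such regions in the genome. A width at 72 h of at least 1.5 times that at 0 h was found in 15 (16.5%, against 14.2%) and of at most 0.667 times in 5 (5.49%, against 1.97%). With each list's narrowest width subtracted, 7 regions of 91 were narrowed against 11.0% of the genome, and with 6 h as the reference 1 was, against 2.33%, so the higher share of narrowed regions did not hold in either. It did hold with a fold of 2, where 2 regions of 91 were narrowed against 0.284% of the genome. DNMT3B had 4 of the 15, TET3 had 3, and TET1, TET2, DNMT3A and IDH2 had 2 each. The largest widening was at DNMT3B, where chr20:31359411-31360079, 9.74 kb inside the gene, measured 226 bp at 0 h and 610, 553, 281, 621 and 646 bp later. The 24 h peak there was near the normoxic width and the other 4 above it. Next came chr2:25456014-25456700 in DNMT3A (272 to 670 bp from 0 to 72 h), chr2:74312723-74313690 in TET3 (418 to 968 bp), chr4:106129676-106130143 in TET2 (239 to 454 bp) and chr20:31366363-31367454 in DNMT3B (455 to 854 bp).

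All 5 narrowed regions lay in 3 genes. At TET1, chr10:70379704-70380310 was 539 bp wide in normoxia and 295, 245, 319, 342 and 251 bp in hypoxia, so each later list lay well under normoxia. At TET3, chr2:74329705-74330338 measured 544 bp in normoxia and 265 bp at 72 h, but 616 bp at 6 h and 535 and 534 bp at 24 and 48 h, so the low width was that of 72 h and, at 343 bp, of 12 h. The other region of TET3, chr2:74280394-74280775, measured 380 and 242 bp at 0 and 72 h. Those of DNMT3A, chr2:25496171-25496959 and chr2:25503218-25504035, measured 536 and 347 bp, and 792 and 527 bp.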

How the data were processed

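The 6 lists hold chromosome, start and end of each peak with no score, so the quantity used from these files, as the authors deposited them, is peak extent in bp. Per the submitters' processing notes, BWA 0.7.17, MACS2, HTSeq and build hg19 were used, without role or order. The peak threshold is not given in the sources used here, nor is any use of the input. Depth is unknown.

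From these files, peaks were assigned to windows by midpoint, covered lengths summed, and starts written 1-based. Members and rules were chosen with earlier results of these data known. All 10 genes are named. Regions named are the widest, the gained, the lost, and the 5 most widened and most narrowed. The 2 kb tolerance for the gene length and the minimum of 2000 bp for broad regions were chosen after the data were examined. Gene names, lengths and neighbours came from RefSeq on GRCh38.p14, as did promoters, where all 10 genes matched. Related pathway genes were not placed, and are not analysed here.

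Alternatives were other folds, references, widths, merging, bins, equal list lengths, flanks and each list left out. The computations were tested on 3000 simulated loci, where 8 of 8 quantities were recovered. Computation was in Python 3.11.15 with SciPy 1.17.1, NumPy 2.4.6, Matplotlib 3.10.9 and pandas 2.3.3.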

Additional observations from a re-analysis of the deposited data

How the results depend on the processing

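No paired analysis was possible because each time has a single library. Of the other settings, 23 values moved and 80 stayed within 1.5 times of a main count or within the counting interval of a main ratio, which is wide where peaks are few. No called direction reversed. Of 50 single-gene ratios, 2 moved by over 1.5 times (TET3 and IDH1, with peaks of at least 500 bp) and 5 crossed 1, those of DNMT3B and IDH2 given above and TET1 at 0.937 with peaks of at least 500 bp and 0.972 with equal list lengths. With as many peaks per list as the shortest, widest first, peak number in the windows at 72 h over 0 h was 0.886 instead of 1.15. The trend of covered length passed in 0 windows by Spearman's rho (7.13% of bins rising). It also passed in 0 windows, with 0% of bins rising, by peak number, with equal list lengths and with each list left out in turn (0 to 0), where 120 orders remain. The windows called higher at 72 h numbered 0 with a fold of 1.5 (16.2% of bins), with 6 h as reference (24.0%) and by peak number (23.7%). Those called lower numbered 0 with a fold of 1.5 (1.44%) or 6 h as reference (4.65%), and 2 (IDH2 and TDG) by peak number (8.67%). Gained regions numbered 4 with equal list lengths (2.12% in the genome). With peaks of at least 500 bp, lost regions numbered 1 and constant ones 56 of 131 (1.69 and 38.6% in the genome). Widened regions numbered 38 of 91 with each list's narrowest width subtracted (32.3%) and 3 with a fold of 2 (3.31%). Narrowed regions numbered 2 with a fold of 2 (0.284%) and 1 with 6 h as reference (2.33%). The cause was not tested. Without peak heights or depth, a weak change in 5-hmC within a peak could not be seen.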
